A study of Mus musculus with 5 samples.

Results

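Amino acid transporters of the kidney were described in RNA from NZB/NZW F1 mice that had received diosmetin or vehicle. The genes were chosen by name, from the families Slc1a, Slc3a, Slc7a, Slc36a, Slc38a and Slc43a plus the 4 renal Slc6 genes Slc6a18, Slc6a19, Slc6a20a and Slc6a20b, and 46 of the 21878 genes in the table were members. The name patterns also took in Slc7a6os, which is not a transporter. The diosmetin group had 3 kidney libraries from mice injected intraperitoneally on alternate days over 6 weeks with diosmetin, a plant flavone, at 50 mg/kg, and the vehicle group had 2 kidney libraries from mice injected with vehicle on the same schedule. All mice were F1 hybrids of NZB/BINJ mothers and NZW/LacJ fathers, a cross that develops lupus-like autoimmunity and nephritis, so both groups carry the same disease background. The sources used here state neither the age and sex of the F1 mice nor what the vehicle held, and the tissue was whole kidney, a mixture of cell types.

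The tubule of the kidney takes back nearly all of the amino acids that are filtered, mostly in the proximal tubule. Carriers of the brush border, which faces the urine, bring amino acids into the cell together with sodium or protons or by exchange, and carriers of the basolateral membrane pass them on to the blood. Several carriers work as pairs, in which a heavy chain (rBAT, from Slc3a1, or 4F2hc, from Slc3a2) brings a light chain of the Slc7 family to the membrane. Other members serve the cell's own supply of amino acids, in the plasma membrane or in lysosomes, and part of these are induced through the transcription factor ATF4 when amino acids run short.

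Expression was given as FPKM, the fragments of a gene scaled by transcript length and library total, a scale on which genes can be set side by side per length. From the steps between low values, 1 FPKM in a transcript of 2 kb stood for an estimated 77.4 to 98 fragments, depending on the library, and 3 fragments in such a transcript were worth 0.0306 to 0.0388 FPKM. The labels do not say whether each library stands for its own animal. All p-values therefore reflect only how far these libraries scatter, and that scatter may be technical.

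Of the 4 highest members, all but Slc7a12, a light chain of unknown partner, belonged to brush border carriers. There were 4 members with a mean of at least 100 FPKM over the 5 libraries, 15 between 10 and 100, 10 between 1 and 10, 5 between 0.5 and 1, and 12 below 0.5. Slc6a18, which encodes a neutral amino acid carrier of the late proximal tubule, had the highest mean (306 FPKM), followed by Slc3a1 (275), Slc7a12 (174) and Slc6a19 (103). These 4 genes held 55.8% to 59.5% of the summed FPKM of all members in the diosmetin libraries, and 57.1% and 61.8% in the vehicle libraries. The sum over the 46 members was 1323, 1333 and 1452 FPKM in the diosmetin libraries against 1594 and 1597 FPKM in the vehicle libraries, so the groups did not overlap.

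**Figure D1:**
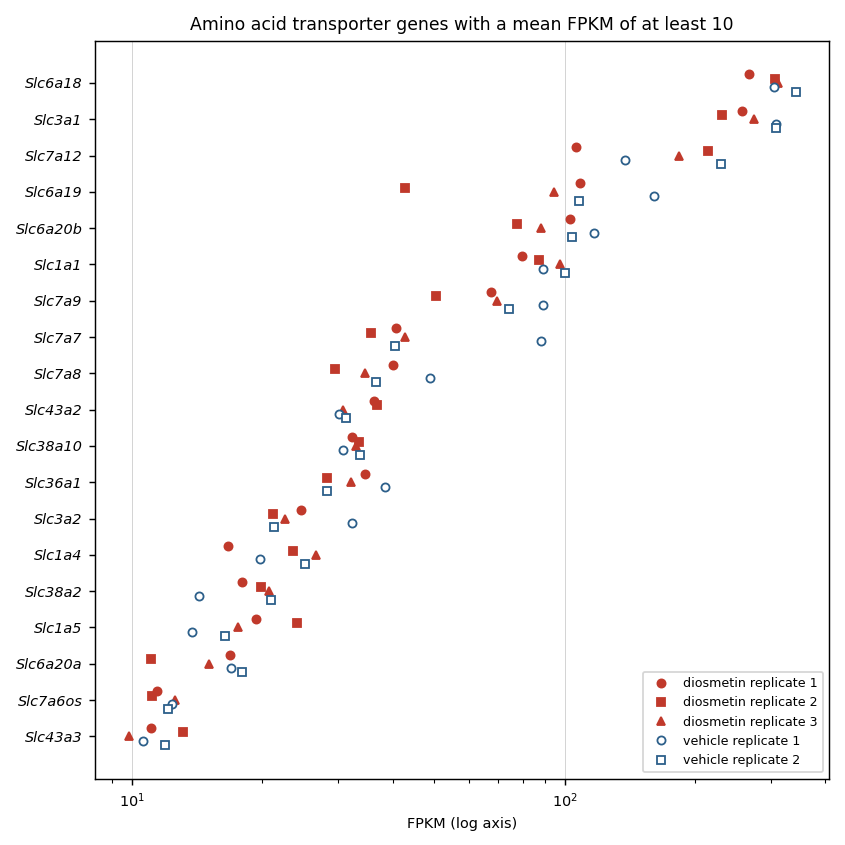
FPKM (log axis) of the 19 members with a mean of at least 10 FPKM, 1 row a gene and 1 point a library, with filled points for the 3 diosmetin libraries and open points for the 2 vehicle libraries. Slc3a1, Slc7a9, Slc6a20a and Slc6a20b have both vehicle points right of all diosmetin points, and Slc1a5 has them left of all.

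The comparison asked how the members differed between diosmetin and vehicle. No member changed by the test over all genes: at an adjusted p under 0.05, limma called 0 of the 34 members that passed a filter on low values, and 0.0% of the 13290 genes tested. The smallest adjusted p of a member was 0.738. Before adjustment, 2 lower members had a p under 0.05, Slc3a1 and Slc7a9, against 1.69% of all genes tested, and so did 1 higher member, Slc1a5, against 4.68% of all genes. The groups did not overlap for 4 lower members (11.8% of 34, against 6.17% of all genes tested) and for 2 higher members (5.88%, against 18.3%). Of the 34 members, 21 (61.8%) had a lower mean under diosmetin, against 36.1% of all genes tested. The median log2 difference, diosmetin minus vehicle, was -0.02 over the members and 0.04 over all genes.

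These counts rested on single libraries and, for Slc7a9 and Slc6a20b, on the processing. Slc7a9 had an unadjusted p above 0.05 with no filter on low values, with a minimum mean of 1 FPKM, after median-of-ratios scaling and without a variance trend. After rescaling to TPM, Slc6a20b joined Slc3a1, Slc7a9 and Slc1a5 at an unadjusted p under 0.05. The number of members at an unadjusted p under 0.05 came to 0 when diosmetin replicate 2 was left out. That of all genes tested also fell, from 847 to 385. Lower members whose groups did not overlap rose from 4 to 7 when diosmetin replicate 3 was dropped, and to 12 when either vehicle library was. Smaller groups separate more easily for any gene. The share of all genes without overlap was not counted with a library dropped, so these rises cannot set the members apart from other genes. Of all genes at an unadjusted p under 0.05, 73.4% were higher as deposited, 33.0% when vehicle replicate 1 was left out, and 50.5% after rescaling by the median of ratios, under which 24 of the 34 members and 51.2% of all genes were lower.

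**Figure D2:**
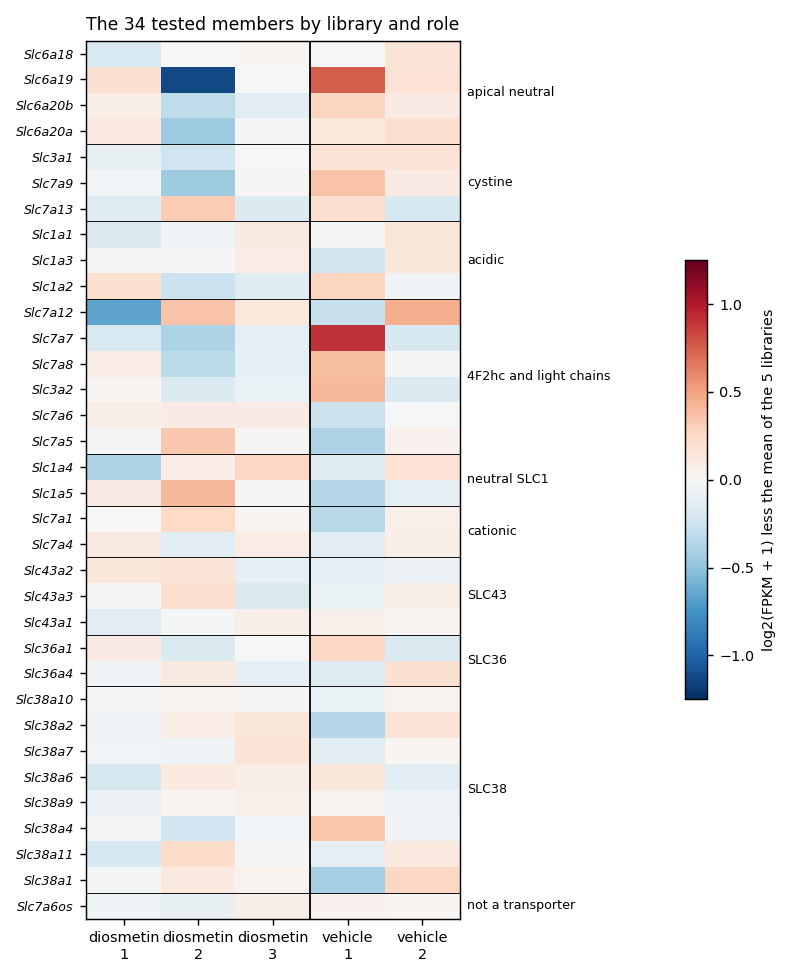
The 34 tested members (rows, grouped by role) in the 3 diosmetin and 2 vehicle libraries (columns). Colour gives log2(FPKM + 1) less the gene's mean over the 5 libraries. Slc6a19 is lowest in diosmetin replicate 2, and Slc7a7, Slc7a8 and Slc3a2 are highest in vehicle replicate 1.

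Among the brush border carriers of neutral and imino acids, the mean was lower under diosmetin for all 4 tested genes, and none passed the test. Slc6a19 encodes B0AT1, the main carrier of neutral amino acids, whose loss causes Hartnup disorder in humans. It was at 109, 42.8 and 94.7 FPKM in the diosmetin libraries against 161 and 108 FPKM in the vehicle libraries, a log2 difference of -0.78 ± 0.40 (SE). Diosmetin replicate 2 was the lowest library, while diosmetin replicate 1 and vehicle replicate 2 lay side by side, so the groups overlapped. Leaving out diosmetin replicate 2 gave a log2 difference of -0.37, and leaving out vehicle replicate 2 gave -1.07.

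Slc6a18, its neighbour on chromosome 13, was at 267, 306 and 311 FPKM under diosmetin and at 305 and 342 FPKM under vehicle. The groups overlapped, and the log2 difference was -0.14 ± 0.11 (SE). In the RefSeq annotation of GRCm38, Slc6a18 lies at 73661750 to 73678023 and Slc6a19 at 73679745 to 73700780 of that chromosome. The ratio of Slc6a18 to Slc6a19 was 2.46, 7.14 and 3.28 in the diosmetin libraries and 1.90 and 3.17 in the vehicle libraries, so diosmetin replicate 2 also stood apart in the balance of the 2 genes.

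Slc6a20a and Slc6a20b, a neighbouring pair of genes on chromosome 9 that corresponds to the single human proline carrier gene SLC6A20, did not overlap between the groups. Slc6a20b was at 103, 77.4 and 88.4 FPKM under diosmetin against 116.9 and 104 FPKM under vehicle (log2 difference -0.31 ± 0.13, SE). Slc6a20a was at 16.8, 11.1 and 15.1 FPKM under diosmetin and at 16.9 and 17.9 FPKM under vehicle (-0.28 ± 0.17, SE). The gap between the groups was narrow in both genes, and diosmetin replicate 2 was the lowest library in both. As close paralogs they may share fragments, and the sources used here do not say how the counting divided such fragments.

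The cystine carrier of the brush border had the members with the smallest p-values among those lower under diosmetin. It takes up cystine and the dibasic amino acids, and mutation of either of its genes causes cystinuria, a disease of kidney stones. Slc3a1, its heavy chain rBAT, was at 257, 230 and 273 FPKM under diosmetin against 308 and 308 FPKM under vehicle. All diosmetin libraries lay below both vehicle libraries, which were nearly equal. The log2 difference was -0.28 ± 0.10 (SE, limma adjusted p = 0.738). Slc7a9, its light chain, was at 67.5, 50.5 and 69.7 FPKM under diosmetin against 88.9 and 74.3 FPKM under vehicle, again with no overlap (-0.39 ± 0.16, SE, limma adjusted p = 0.738).

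The heavy chain stood above the light chain by a like factor in every library. The ratio of Slc3a1 to Slc7a9 was 3.80, 4.56 and 3.92 under diosmetin and 3.47 and 4.14 under vehicle, with a log2 difference of 0.11 (two-sided exact permutation p = 0.6, where 3 libraries against 2 allow no p below 0.1). Slc7a13, the acidic amino acid carrier that pairs with rBAT in the straight proximal tubule, was far lower, at 0.570, 1.17 and 0.550 FPKM under diosmetin and at 1.01 and 0.521 FPKM under vehicle. Slc3a1 thus exceeded Slc7a13 by 198 to 497 times in the diosmetin libraries and by 304 and 591 times in the vehicle libraries.

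Slc3a1 was also the only member with a match to the element CAAAGTCCA of HNF4, a transcription factor of the proximal tubule, in the RefSeq promoter table of GRCm38.p6 (250 bases before to 50 after a gene's start, both strands). It is shown because it is the highest member whose groups did not overlap. The table held 35 of the 46 members, of which 1 (2.86%) had the element, against 0.555% of all genes in the table. The element GTTAATNAT, most of the HNF1 site, was in none of the 35 and in 0.94% of all genes. Below is the strand of the gene from position -100 to -1, with the element at -39 to -31 in capitals, at chr17:85028247-85028346 on the plus strand. Hnf4a itself was at 233, 220 and 220 FPKM under diosmetin and at 243 and 204 FPKM under vehicle.

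Slc3a1: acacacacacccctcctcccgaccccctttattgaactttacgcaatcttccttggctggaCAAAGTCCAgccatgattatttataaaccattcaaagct

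The acidic amino acid carriers showed little difference. Slc1a1, the brush border carrier of glutamate and aspartate, was at 79.5, 87.2 and 97.6 FPKM under diosmetin and at 89.2 and 100 FPKM under vehicle (log2 difference -0.11 ± 0.11, SE), with overlap. Slc1a2 and Slc1a3, the glutamate carriers best known from glia, were at 0.258 to 1.59 FPKM under diosmetin and at 0.475 to 1.68 FPKM under vehicle.

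On the basolateral side, Slc7a7, Slc7a8 and Slc3a2 of the 4F2hc system were highest in vehicle replicate 1, and their differences moved with the vehicle library left out. Without vehicle replicate 2 they were -1.14 for Slc7a7, -0.49 for Slc7a8 and -0.49 for Slc3a2. Slc7a7, the light chain y+LAT1 that passes dibasic amino acids to the blood and is mutated in lysinuric protein intolerance, was at 40.7, 35.6 and 42.8 FPKM under diosmetin against 88.3 and 40.5 FPKM under vehicle. The second vehicle library lay within the diosmetin range, and the log2 difference of -0.59 ± 0.30 (SE) was -0.03 without vehicle replicate 1. Slc7a8, the light chain LAT2 for neutral amino acids, was at 40.0, 29.4 and 34.5 FPKM under diosmetin and at 48.7 and 36.6 FPKM under vehicle (-0.29 ± 0.16, SE), and its difference was -0.09 without that library.

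Slc3a2, the heavy chain 4F2hc, also had its highest value in vehicle replicate 1 and its lowest in diosmetin replicate 2, and was at 24.6, 21.2 and 22.6 FPKM under diosmetin and at 32.3 and 21.3 FPKM under vehicle. Its log2 difference of -0.20 ± 0.17 (SE) turned to 0.09 without vehicle replicate 1. The ratio of Slc3a2 to Slc7a7 was 0.604, 0.595 and 0.529 under diosmetin against 0.366 and 0.527 under vehicle, which did not overlap (exact permutation p = 0.1, two-sided, the smallest p possible; adjusted p = 0.8 over the 8 ratios compared). The gap between diosmetin replicate 3 and vehicle replicate 2 was small in that ratio. Slc7a7 is also made by macrophages. The summed FPKM of 7 macrophage and dendritic cell markers was 101 to 119 under diosmetin, 69.2 in vehicle replicate 1 and 147 in vehicle replicate 2. Most of that sum was Cd74, at 47.2 FPKM in vehicle replicate 1 and 79.8 FPKM in vehicle replicate 2. The part of macrophages in the Slc7a7 values was not tested.

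Slc7a12, a light chain of the Slc7 family whose heavy chain partner is not known, was the third highest member. It was at 106, 215 and 184 FPKM under diosmetin and at 138 and 230 FPKM under vehicle. Each group held a low and a high library, and the groups overlapped (log2 difference -0.14 ± 0.34, SE). The sign turned when diosmetin replicate 1 (0.16) or vehicle replicate 2 (0.23) was left out.

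Most proximal tubule markers had a lower mean under diosmetin, by an amount that moved with single libraries. Of 12 markers of any proximal tubule segment, 11 had a lower mean (36.1% of all genes tested had), and their mean log2 difference was -0.31. That mean was -0.14, with 8 of 12 lower, when vehicle replicate 1 was left out, -0.20 without diosmetin replicate 2 and -0.49 without vehicle replicate 2. The summed FPKM of the 12 was 8172 to 10870 under diosmetin against 13140 and 13970 under vehicle, but without Kap, the most abundant of them, the sums overlapped, at 5364 to 8317 under diosmetin and at 6990 and 9266 under vehicle. None of the 12 was listed at 0. All 6 markers of the first segment had a lower mean, with a mean log2 difference of -0.54 (-0.25 when vehicle replicate 1 was left out and -0.35 without diosmetin replicate 2) and a summed FPKM of 2140, 1442 and 1691 under diosmetin and 2642 and 1896 under vehicle. Of 9 markers of the later segments 6 were lower and 3 higher, with sums of 1364 to 1852 under diosmetin and 1784 and 2053 under vehicle. All 8 markers of the loop of Henle and distal tubule and all 10 of the collecting duct had a higher mean under diosmetin, with sums of 2502 to 3548 against 2417 and 2575 FPKM under vehicle for the loop and distal tubule, and 318 to 348 against 243 and 283 FPKM under vehicle for the collecting duct. The part of these marker differences in those of the carriers was not tested. In bulk tissue, fewer cells of a type and less RNA per cell cannot be told apart.

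Set against the proximal tubule markers, most of the carriers lay near or above vehicle with all libraries in the fit, in a comparison added after the values were seen. The mean log2 difference of the 12 markers was subtracted from that of each gene. This left 0.03 for Slc3a1, -0.07 for Slc7a9, 0.0073 for Slc6a20b, 0.03 for Slc6a20a, 0.02 for Slc7a8 and 0.18 for Slc6a18. It left 0.17 for Slc7a12, 0.21 for Slc1a1, 0.11 for Slc3a2 and 0.59 for Slc7a5, but -0.27 for Slc7a7, whose groups still overlapped. Without Kap the marker mean was -0.2751. The differences of Slc3a1 (-0.2827), Slc6a20a (-0.2819), Slc7a8 (-0.2907) and Slc6a20b (-0.3059) lay just below it, so their signs rested on Kap. For Slc6a19 the subtraction left -0.47, and its log2 value less the marker mean was -2.07, -2.95 and -2.03 in the diosmetin libraries against -1.77 and -1.99 in the vehicle libraries. These values did not overlap, but diosmetin replicate 3 and vehicle replicate 2 were only a small step apart. The difference rested in large part on diosmetin replicate 2: with that library left out of both Slc6a19 and the markers, it was -0.17.

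**Figure D3:**
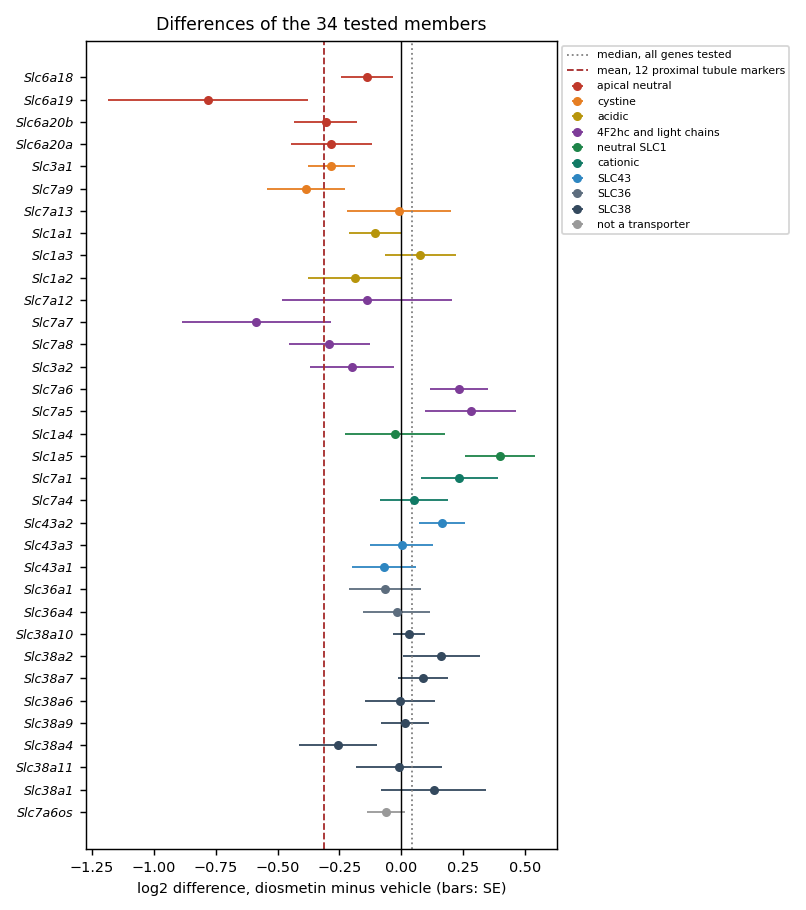
Log2 difference, diosmetin minus vehicle, of the 34 tested members by role, with bars of 1 SE from limma. The dashed line is the mean of 12 proximal tubule markers (-0.31), near which Slc3a1, Slc6a20a, Slc6a20b and Slc7a8 lie, and the dotted line is the median of all genes tested (0.04).

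In a list of brush border partners, peptidases and peptide carriers, most genes also had a lower mean, a count that moved with single libraries. The peptidases cut filtered peptides to amino acids. Of the 10 tested genes, 7 had a lower mean (70.0%, against 36.1% of all genes tested) and 3 a higher one. The median log2 difference was -0.13, and 0 passed over all genes. Without vehicle replicate 2, 5 genes were higher and 5 lower, with a median of 0.0038. Without vehicle replicate 1 the median was -0.21. Only 1 of the 10 (against 1.69% of all genes, lower) had an unadjusted p under 0.05, the dipeptidase gene Dpep1, which was at 22.0, 18.1 and 18.7 FPKM under diosmetin against 38.5 and 25.4 FPKM under vehicle (log2 difference -0.65 ± 0.18, SE). Its groups did not overlap, vehicle replicate 1 was far above the rest, and the difference was -0.36 when that library was left out and -0.95 without vehicle replicate 2.

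Tmem27, which encodes collectrin, the protein that brings B0AT1 to the renal brush border, was named after its values were seen. It was at 732, 486 and 636 FPKM under diosmetin against 775 and 715 FPKM under vehicle, with overlap and with diosmetin replicate 2 lowest. The ratio of Slc6a19 to Tmem27 was 0.148, 0.0881 and 0.149 under diosmetin and 0.207 and 0.151 under vehicle (two-sided exact permutation p = 0.4). Anpep, an aminopeptidase of the brush border, was at 63.5, 49.6 and 54.0 FPKM under diosmetin and at 63.4 and 62.0 FPKM under vehicle, with overlap through diosmetin replicate 1. Mep1b, a subunit of the protease meprin, was at 40.4, 56.7 and 55.1 FPKM under diosmetin against 58.0 and 85.2 FPKM under vehicle, and Slc15a1, the peptide carrier PEPT1, was higher at a low level (0.738 to 1.01 FPKM against 0.576 and 0.613 FPKM under vehicle).

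Of 12 other tested carriers of amino acids and amines, in the plasma membrane, mitochondria or lysosomes, 6 were higher and 6 lower, with a median log2 difference of -0.0041. Slc6a6, the taurine carrier, alone had an unadjusted p under 0.05 (1 of 12, against 1.69% of all genes, lower), and it was at 93.3, 77.3 and 93.1 FPKM under diosmetin against 103 and 107 FPKM under vehicle, with no overlap. Slc25a13, the aspartate and glutamate carrier citrin of mitochondria, was at 38.7, 29.6 and 31.7 FPKM under diosmetin and at 37.9 and 40.7 FPKM under vehicle. Slc6a9, a glycine carrier, was at 3.96, 5.37 and 5.38 FPKM under diosmetin and at 3.24 and 4.34 FPKM under vehicle, and Slc6a13, a carrier of GABA and betaine, at 46.2, 65.8 and 56.4 FPKM under diosmetin and at 46.3 and 50.1 FPKM under vehicle. Slc25a13, Slc6a9 and Slc6a13 all overlapped between the groups.

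Of the neutral exchangers of the Slc1 family, 1 was higher and 1 lower. Slc1a5, the neutral amino acid exchanger ASCT2 that brings glutamine into dividing cells, was at 19.3, 24.0 and 17.6 FPKM under diosmetin against 13.8 and 16.4 FPKM under vehicle. The groups did not overlap, and the log2 difference was 0.40 ± 0.14 (SE, limma adjusted p = 0.738). Slc1a4, the related exchanger ASCT1, did not follow it: it was at 16.7, 23.6 and 26.6 FPKM under diosmetin and at 19.7 and 25.1 FPKM under vehicle (-0.02 ± 0.20, SE).

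Slc7a5, the light chain LAT1 for large neutral amino acids, was at 1.20, 1.79 and 1.24 FPKM under diosmetin and at 0.689 and 1.30 FPKM under vehicle (log2 difference 0.28 ± 0.18, SE). Slc7a1, the cationic amino acid carrier CAT1, was at 3.05, 3.79 and 3.08 FPKM under diosmetin and at 2.17 and 3.19 FPKM under vehicle (0.24 ± 0.15, SE). Slc7a6, the light chain y+LAT2, named after its values were seen, was at 2.29, 2.34 and 2.33 FPKM under diosmetin against 1.58 and 2.09 FPKM under vehicle (0.23 ± 0.12, SE). In all 3 genes vehicle replicate 1 was the lowest library, and only Slc7a6 did not overlap. When vehicle replicate 1 was left out, the differences were 0.06 for Slc7a5, 0.03 for Slc7a1 and 0.10 for Slc7a6. Slc7a6os, which lies next to Slc7a6 on chromosome 8, was at 11.4, 11.1 and 12.6 FPKM under diosmetin and at 12.3 and 12.1 FPKM under vehicle; the sources used here do not say whether the counting used strand.

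The Slc38 family, sodium-coupled carriers of neutral amino acids, differed less between the groups than between the vehicle libraries for all 8 of its tested members. Slc38a2, the carrier SNAT2 that is induced when amino acids are scarce, was at 17.97, 19.9 and 20.7 FPKM under diosmetin and at 14.3 and 20.9 FPKM under vehicle (0.16 ± 0.16, SE, and -0.10 without vehicle replicate 1). Slc38a10, an intracellular member, was the steadiest of the better expressed genes, at 32.2, 33.4 and 32.9 FPKM under diosmetin and at 30.7 and 33.6 FPKM under vehicle. The lysosomal members Slc38a7, a glutamine exporter, and Slc38a9, the arginine sensor of the growth kinase mTORC1, were at 3.26 to 9.60 FPKM under diosmetin and at 3.28 to 8.53 FPKM under vehicle, with overlap in both. Slc38a1, Slc38a4, Slc38a6 and Slc38a11 were at 0.452 to 4.41 FPKM under diosmetin and at 0.226 to 4.48 FPKM under vehicle, all with overlap.

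In the Slc43 family, Slc43a2, the facilitator LAT4 of the basolateral membrane, was at 36.3, 36.9 and 30.7 FPKM under diosmetin and at 30.1 and 31.2 FPKM under vehicle (0.17 ± 0.09, SE). Its groups overlapped through diosmetin replicate 3 alone. Slc43a3, a purine nucleobase carrier, was at 9.82 to 13.1 FPKM under diosmetin and at 10.6 and 11.9 FPKM under vehicle, and Slc43a1 at 0.379 to 0.602 FPKM under diosmetin and at 0.585 and 0.548 FPKM under vehicle. Of the proton-coupled Slc36 family, Slc36a1 was at 34.5, 28.2 and 32.05 FPKM under diosmetin and at 38.5 and 28.3 FPKM under vehicle, and its log2 difference of -0.07 ± 0.15 (SE) turned to 0.01 without diosmetin replicate 2 and to 0.15 without vehicle replicate 1. Slc36a4 was at 3.80 to 4.57 FPKM under diosmetin and at 3.59 and 4.86 FPKM under vehicle, and Slc7a4, which belongs by sequence to the cationic carriers, at 1.26 to 1.70 FPKM under diosmetin and at 1.28 and 1.62 FPKM under vehicle.

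Genes of the ATF4 response to amino acid shortage were the ones in the pathway with the largest differences. Of 20 tested genes of that list 16 had a higher mean under diosmetin, against 63.9% of all genes tested, with a median log2 difference of 0.27 against 0.04 over all genes. Before adjustment, 4 higher genes (of 20, against 4.68% of all genes) and no lower one had a p under 0.05, and 0 passed over all genes. The 4 genes with a lower mean were Cth (log2 difference -0.14), Sesn2 (-0.11), Ddit3 (-0.05) and Psph (-0.04). Shmt2 (0.03) and Nupr1 (0.01) were nearly level. The genes of the list given by library below were all among the higher ones. Asns, asparagine synthetase, was at 2.20, 10.99 and 7.24 FPKM under diosmetin and at 0.657 and 2.61 FPKM under vehicle (log2 difference 1.48 ± 0.60, SE). Mthfd2, a mitochondrial enzyme of folate metabolism, was at 1.76, 5.03 and 3.67 FPKM under diosmetin against 0.498 and 1.23 FPKM under vehicle (1.22 ± 0.35, SE). Diosmetin replicates 2 and 3 were high in both, while diosmetin replicate 1 lay near vehicle replicate 2, so Asns overlapped and Mthfd2 did not.

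Aldh18a1, an enzyme of proline synthesis, was at 1.5, 3.59 and 2.16 FPKM under diosmetin against 0.790 and 1.33 FPKM under vehicle, and Atf4 itself at 30.9, 37.4 and 30.1 FPKM against 25.3 and 28.6 FPKM under vehicle. Neither overlapped between the groups. Phgdh and Psat1, the first enzymes of serine synthesis, and the transcription factor Atf5 were named after their values were seen. Phgdh was at 3.07, 15.8 and 10.03 FPKM under diosmetin against 2.90 and 2.46 FPKM under vehicle, Psat1 at 4.97, 15.2 and 12.2 FPKM under diosmetin and at 5.38 and 4.23 FPKM under vehicle, and Atf5 at 4.18, 31.8 and 13.9 FPKM under diosmetin and at 2.27 and 4.29 FPKM under vehicle. Diosmetin replicates 2 and 3 were the highest libraries in all 3, and diosmetin replicate 1 was close to vehicle, so that only Phgdh did not overlap. Fibroblast markers were also highest in diosmetin replicate 2 for 5 of 6 genes, with a summed FPKM of 27.6, 56.2 and 46.9 under diosmetin and 27.4 and 43.5 under vehicle, and their part in these differences was not tested.

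The number of genes of the list at an unadjusted p under 0.05 was 10 without diosmetin replicate 1, 1 without diosmetin replicate 2, 2 without diosmetin replicate 3, 0 higher and 1 lower without vehicle replicate 1, and 7 without vehicle replicate 2. With other processing it was 2 with no variance trend, 1 with no filter on low values, and 3 with a minimum mean of 1 FPKM. It was 3 after median-of-ratios scaling, 5 with a pseudocount of 0.1 and 6 after rescaling to TPM.

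**Figure D4:**
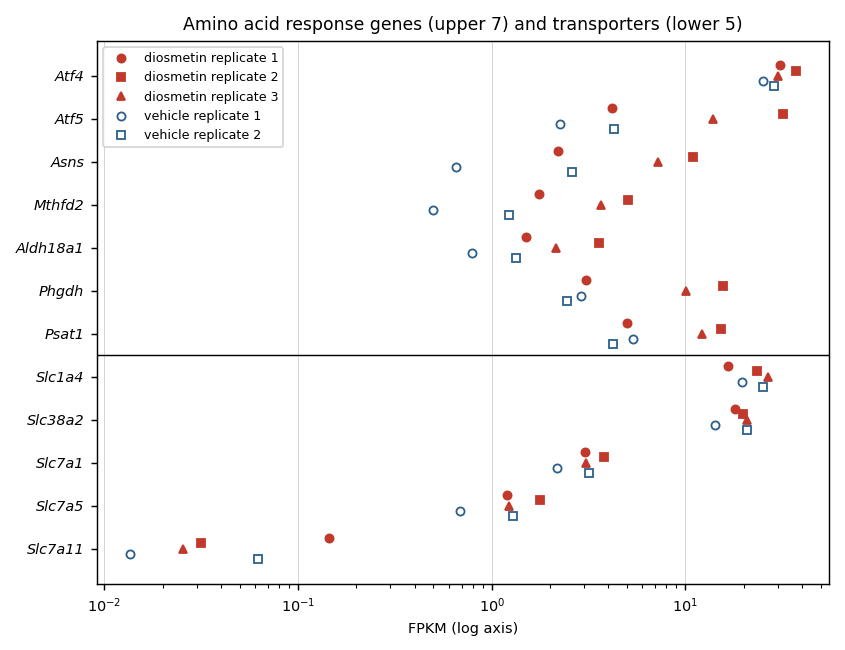
FPKM (log axis) of 7 genes of the ATF4 amino acid response and of 5 transporters that ATF4 is known to induce, 1 point a library, with filled points for diosmetin and open points for vehicle. Asns, Phgdh, Psat1 and Atf5 are spread widely, with diosmetin replicates 2 and 3 highest, while Slc7a11 lies below 0.15 FPKM in every library, with diosmetin replicate 1 highest, and Slc7a5 has diosmetin replicate 2 highest.

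Among the transporters that ATF4 is known to induce, Slc7a11, the cystine and glutamate exchanger xCT, is the best known. It was near the limit of detection except in diosmetin replicate 1, at 0.145, 0.0316 and 0.0255 FPKM under diosmetin and at 0.0136 and 0.0624 FPKM under vehicle. Its highest library was diosmetin replicate 1, in which Asns and Phgdh were the lowest of the diosmetin group. The ATF4 response element TGATGNAA was found on either strand in the promoter windows of 3 of the 35 members (8.57%), against 4.51% of all genes and 7 of 19 genes (36.8%) of the ATF4 list. The 3 members were Slc7a11, Slc1a4 and Slc7a7. None of these carried the HNF4 element, whose only match in a member was in Slc3a1.

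Slc7a11 and Asns are shown since both carry the element ahead of the start, while Slc7a11 stood near 0 and Asns had one of the largest differences of the list. Both stretches run from position -100 to -1 on the strand of the gene, with the element in capitals. That of Slc7a11 lies at chr3:50443614-50443713 on the minus strand and holds the element in both orientations, and that of Asns at chr6:7693210-7693309 on the minus strand holds it once.

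Slc7a11: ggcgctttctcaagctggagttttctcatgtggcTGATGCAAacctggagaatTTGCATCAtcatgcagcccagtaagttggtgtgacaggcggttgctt

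Asns: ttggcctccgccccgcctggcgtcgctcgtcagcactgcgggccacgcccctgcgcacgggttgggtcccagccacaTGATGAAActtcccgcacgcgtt

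The remaining members were at a low level. The 12 members with a mean under 0.5 FPKM, which were not tested, were Slc7a2, Slc1a7, Slc7a10, Slc7a3, Slc7a11, Slc7a15, Slc1a6, Slc36a2, Slc38a5, Slc38a8, Slc36a3 and Slc7a14. Of these, 7 were listed at 0 in at least 1 library. Slc7a2, a cationic carrier induced in activated macrophages, was the highest of them, at 0.322, 0.488 and 0.244 FPKM under diosmetin and at 0.330 and 0.226 FPKM under vehicle. Slc1a7, a glutamate carrier of the retina, was at 0.0871, 0.168 and 0.122 FPKM under diosmetin and at 0.369 and 0.173 FPKM under vehicle. Slc36a2, a glycine and proline carrier known from the human early proximal tubule, was listed at 0 in 2 diosmetin libraries and reached 0.0336 FPKM in vehicle replicate 2.

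The extremes of the members fell on few libraries. Among the 34 tested members, vehicle replicate 1 was the highest library for 11 and the lowest for 11. Over all 13290 genes tested it was the highest for 1952 and the lowest for 5144. Diosmetin replicate 2 was the highest library for 8 members and the lowest for 13. Over all genes tested it was the highest for 4981 and the lowest for 1733. The 2 vehicle libraries differed from each other by more than the groups did for 25 of the 34 members (73.5%), against 60.1% of all genes tested.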

How the data were processed

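Kidney RNA with an integrity number of at least 7 was made into strand-specific libraries after removal of ribosomal RNA and read from both ends, per the labels' protocols. The authors deposited FPKM values in a single table, on build GRCm38 per the submitters' processing notes. Neither the aligner nor the counter is given in the sources used here. The depth of 38.7 to 49.0 fragments (in units of 1e6) was estimated from low genes. Of 1533 such genes, 1439 (93.9%) had values that were multiples of a common step, to within 2%. The absolute depth also needed transcript lengths, which 739 of these genes had, and only 377 of the 739 lay within 5% of it. The 13290 genes whose FPKM averaged 0.5 or more were tested as log2(FPKM + 1), which shrinks the differences of low genes, by limma 3.58.1 in R 4.3.3 (a trended prior variance, 3 residual degrees of freedom). Tests were two-sided, and p-values were adjusted by the Benjamini-Hochberg method over all genes, with a threshold of 0.05. The procedure was tested on simulated data. Ratios of 8 gene pairs were compared by exact permutation.

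Members and lists were chosen with earlier results of these data known. Values are given for the 18 tested members with the highest mean, for those at an unadjusted p under 0.05 or with no overlap and a log2 difference of at least 0.25, and for 4 ATF4 targets. Up to 4 genes of each pathway list follow by smallest p. A gene of the partner list is not reported here. All 46 members were matched by GeneID to RefSeq on GRCm38.p6. Alternatives were a pseudocount of 0.1, other filters on low values, median-of-ratios scaling, rescaling to TPM, no variance trend, and leaving out each library. Python 3.11.15, numpy 2.4.6, pandas 2.3.3, matplotlib 3.10.9 and data.table (version 1.17.8) were used.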

Additional observations from a re-analysis of the deposited data

How the results depend on the processing

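No gene passed an adjusted p of 0.05 under any of the 11 alternatives, and the smallest adjusted p of a named gene was 0.219. No paired analysis was possible because the labels tie no vehicle library to a diosmetin library, and the replicate numbers used here only name the libraries in each group. Where a vehicle library was left out, the lone one was assumed to vary like the diosmetin group.

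With 1 library left out, between 385 and 1464 genes had an unadjusted p under 0.05 (847 with all libraries). The count of such members lay between 0 and 11 (3), and that of lower members without overlap lay between 4 and 12 (4, with fewer libraries to separate). The number of members with a lower mean ranged from 15 to 22 (21).

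Of 37 named genes tested, 6 changed sign when 1 library was left out. Their ranges were -0.51 to 0.23 for Slc7a12, -0.19 to 0.16 for Slc1a4, -0.28 to 0.15 for Slc36a1, -0.0319 to 0.0948 for Slc38a10, -0.49 to 0.088 for Slc3a2 and -0.10 to 0.42 for Slc38a2. Slc38a10 was -0.0228 with median-of-ratios scaling. Less the proximal tubule markers, an alternative chosen after seeing the data, these also changed sign: Slc6a18 (0.18), Slc3a1 (0.0305), Slc7a12 (0.17), Slc6a20b (0.0073), Slc1a1 (0.21), Slc7a8 (0.0225), Slc3a2 (0.11) and Slc6a20a (0.0313). For Slc3a1, Slc6a20b, Slc7a8 and Slc6a20a the change of sign rested on Kap among the markers.

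Log2 differences of 5 ratios changed sign without 1 library: Slc3a1/Slc7a9 ranged from -0.0217 to 0.24, Slc3a1/Slc7a13 from -0.74 to 0.22, Slc3a2/Slc7a8 from -8.777e-07 to 0.18, Slc6a20a/Slc6a20b from -0.12 to 0.14 and Slc7a12/Slc7a13 from -0.97 to 0.73. The cause was not tested for any of these. With 3 libraries against 2, exact permutation cannot go below 0.1.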
